A study of Caenorhabditis elegans with 2 samples.

Results

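The small nuclear RNA (snRNA) and spliced leader RNA genes of Caenorhabditis elegans were examined for binding by a GFP-tagged form of SYD-9, a zinc finger protein. All 129 genes that the Ensembl annotation of build ce11 (WBcel235) classes as snRNA were taken, bound or not, of 46926 annotated genes. They include the sls genes, which encode spliced leader RNA. A gene was counted as bound when the summit of a precipitated region, its point of highest signal, lay within 200 bp of the gene. The data are chromatin immunoprecipitations from 2 biological replicates of 1 group. The worms were whole hermaphrodites of strain OP488, with genotype unc-119(tm4063) III; wgIs488, taken as late embryos 4 h after synchronisation by egg bleaching. They carried the wgIs488 transgene, which encodes SYD-9 with GFP and FLAG at its C-terminus, and chromatin was precipitated with an antibody to GFP. Every sample had the same strain, stage, tag and antibody, so binding was read against the rest of the genome. Worms without the tag were not analysed here, cell types were not separated, and the promoter that drives the transgene is not given in the sources used here.

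snRNAs are the RNA cores of the spliceosome. U1 pairs with the splice site at the start of an intron, U2 with the branch site, U4 holds U6 until activation, U6 lies in the catalytic centre, and U5 holds the exons in place. Nematodes also join a short spliced leader to many messenger RNAs by trans-splicing, with SL1 as the common leader and SL2 mainly used on downstream genes of operons, and SmY RNAs take part in the spliced leader cycle. Most of these genes are transcribed by RNA polymerase II from compact promoters read by the SNAPc complex, whereas U6 genes use RNA polymerase III and carry a TATA box.

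The RefSeq products do not name the U class of most genes, so genes without an sls or smy symbol were placed in families by sequence, at 70% identity or more. Each family is called here by its symbol or by the gene with the highest signal value in the pooled list (the first by position in the B0213.21 family, which has no summit), and the letters known from a U RNA are a description. The genes shown next are bound members of 2 families, and the capitals mark those letters. In sls-2.1 (chrII:5844865-5844974, plus strand) they are the end of the SL2 leader. In sup-6 (chrII:12944803-12944967, minus strand) they are the letters of U1 that pair with the intron start. All sequences are from the RefSeq genome of WBcel235.
sls-2.1: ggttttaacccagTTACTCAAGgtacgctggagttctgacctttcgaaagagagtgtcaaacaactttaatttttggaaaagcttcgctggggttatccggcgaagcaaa
sup-6: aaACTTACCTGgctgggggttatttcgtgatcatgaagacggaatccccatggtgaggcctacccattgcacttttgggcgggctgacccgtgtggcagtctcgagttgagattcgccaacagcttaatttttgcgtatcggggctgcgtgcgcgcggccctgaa

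The 100 bases before the annotated 5′ end are shown next for 8 bound genes, on the strand of the gene, because they hold words that the families share. In sls-2.1 (chrII:5844765-5844864, plus strand) and sls-2.2 (chrII:5543498-5543597, plus strand) the capitals mark a run of 15 bases that the upstream bases of 4 SL2 genes share. In sup-6 (chrII:12944968-12945067, minus strand), sup-39 (chrII:6968559-6968658, minus strand) and F38E11.10 (chrIV:9444542-9444641, plus strand) they mark the word CGGAACCC or its looser form CGNAACCC. In W05B2.8 (chrIII:10989579-10989678, plus strand) they mark that word and TATATAA, and in R07E5.16 (chrIII:4414085-4414184, plus strand) and C28A5.7 (chrIII:4426956-4427055, minus strand) TATATAA alone.
sls-2.1 upstream: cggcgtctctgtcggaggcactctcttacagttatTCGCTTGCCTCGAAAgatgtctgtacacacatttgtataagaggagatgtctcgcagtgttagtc
sls-2.2 upstream: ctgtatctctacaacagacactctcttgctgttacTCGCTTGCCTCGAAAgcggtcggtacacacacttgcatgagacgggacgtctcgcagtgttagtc
sup-6 upstream: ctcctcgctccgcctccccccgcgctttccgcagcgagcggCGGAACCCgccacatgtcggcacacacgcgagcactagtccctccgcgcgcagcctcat
sup-39 upstream: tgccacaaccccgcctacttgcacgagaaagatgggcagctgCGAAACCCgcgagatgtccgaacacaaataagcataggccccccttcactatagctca
F38E11.10 upstream: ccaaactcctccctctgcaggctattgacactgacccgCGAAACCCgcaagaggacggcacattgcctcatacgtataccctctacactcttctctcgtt
W05B2.8 upstream: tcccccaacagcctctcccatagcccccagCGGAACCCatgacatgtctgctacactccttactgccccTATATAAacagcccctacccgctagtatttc
R07E5.16 upstream: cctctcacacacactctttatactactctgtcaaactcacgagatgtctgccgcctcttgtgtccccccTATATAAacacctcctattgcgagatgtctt
C28A5.7 upstream: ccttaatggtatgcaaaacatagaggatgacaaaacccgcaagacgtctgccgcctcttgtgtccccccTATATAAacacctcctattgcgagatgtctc

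The authors deposited 4 region lists in ce11. Those of replicate 1, replicate 2 and the pooled reads held 10468, 20425 and 13472 regions, background regions included. The set kept by an irreproducible discovery rate (IDR) step held 941 regions, which were the 941 of highest signal value in the pooled list. The signal value is the authors' peak caller score, on a scale that is not stated and need not be the same in each list. It ran from 95.2 to 932.3 in the IDR set, with a median of 130.9. Positions of summits are in bp from the annotated 5′ end of the gene, on its strand, and are negative upstream. Read counts are no part of these lists, so depth is unknown and no interval that needs it is given. With 1 group there was no contrast to test, so counts are set beside the same counts over all genes, and values of both replicates are given.

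Binding above the IDR threshold was seen at 10 of the 129 genes, which lay at 15 IDR regions. These 10 were 3 SL2 genes (sls-2.4, sls-2.1 and sls-2.2), 3 genes with U6 letters (W05B2.8, R07E5.16 and C28A5.7), sup-6 and sup-39 with U1 letters, mir-1831 inside sup-39, and F38E11.10 with U5 letters. No gene of the SL1, U2-lettered, U4-lettered or SmY groups was among them. The 10 made up 7.75% of the snRNA genes, against 2.31% of all 46890 nuclear genes and 3.41% of those genes without the piRNA genes. Among other small RNA classes the share in the IDR set was 24.5% of 612 tRNA genes, 16.8% of 346 snoRNA genes and 3.07% of 261 miRNA genes. The snRNA share thus lay between those of the miRNA and the snoRNA genes.

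In the longer lists the snRNA genes did not stand above other genes. The pooled list had a summit within 200 bp of 27 snRNA genes (20.9%), against 19.1% of all nuclear genes and 27.8% of those without the piRNA genes. Replicate 1 had one at 21 (16.3%, against 15.8% of all nuclear genes and 23% without the piRNA genes). Replicate 2 had one at 30 (23.3%, against 25.5% of all nuclear genes and 36.9% without the piRNA genes). The snRNA shares were thus near those of all nuclear genes and below those of the genes without the piRNA genes, and how far they stand apart depends on that choice. The 3 lists also covered more of the genome: 5.16%, 4.05% and 7.76% of nuclear bases lay within 200 bp of a summit of the pooled, replicate 1 and replicate 2 lists, compared with 0.36% for the IDR set. A summit was listed by both replicates at 18 snRNA genes, by replicate 1 alone at 3, by replicate 2 alone at 12, and by none of the 4 lists at 95.

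**Figure D1:**
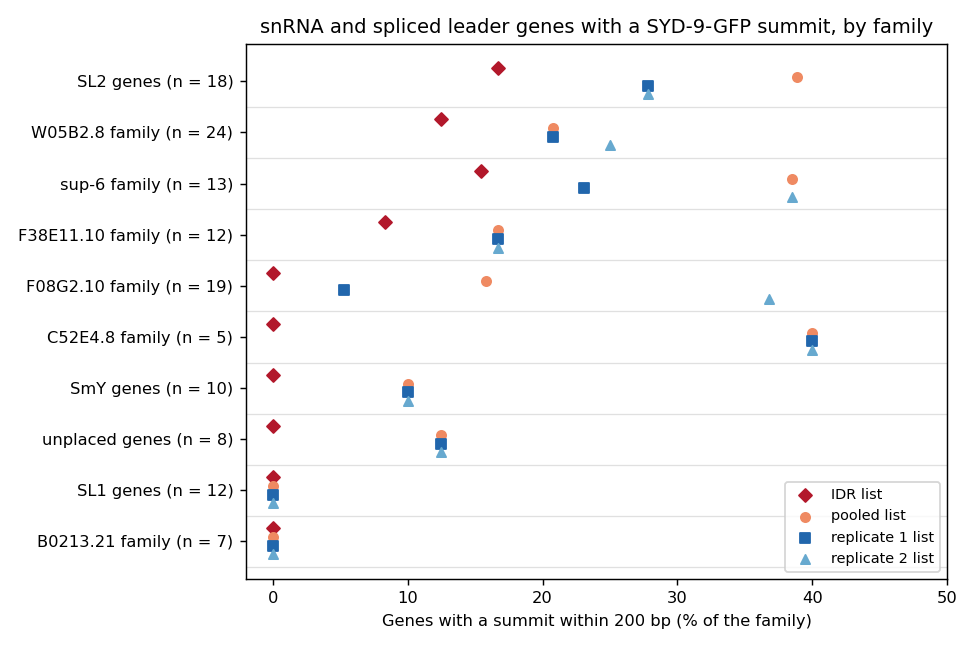
Share of the genes of each family with a summit within 200 bp (x axis, %), in the IDR, pooled, replicate 1 and replicate 2 lists (markers); mir-1831, a family of 1, is left out. IDR summits lie at 4 families, with 16.7% of SL2 genes, 15.4% of the sup-6 family, 12.5% of the W05B2.8 family and 8.33% of the F38E11.10 family, and at none of the others.

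The SL2 genes were the family with most genes at pooled summits, 7 of 18 (38.9%, against 19.1% of all nuclear genes). Of these, 3 were in the IDR set (16.7% of the family, against 2.31% of all nuclear genes). By share the SL2 genes did not stand apart in the pooled list, which had summits at 38.5% of the sup-6 family and 40% of the C52E4.8 family. sls-2.4 (chrI:4172206-4172315, plus strand) had a signal value of 256.4 in the IDR set, rank 81 of 941, at position 23 from its 5′ end. Its nearest summits had 109.2 in replicate 1 (rank 102 of that list) and 149.7 in replicate 2 (rank 64). A further IDR summit lay at position 223, past the end of the gene, with 150.7.

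sls-2.1 had IDR summits on both sides of the gene. The upstream one, at position -46, had 219.5 (rank 129), and the downstream one, at position 153, had 97.1 (rank 903). The distance rule takes the nearest, which is the weaker of them, because it lies 44 bp from the gene's end. Replicate 1 listed 1 summit there, at position -17 with 100.4, and replicate 2 listed both, with 116.2 at position -44 and 70.9 at position 155.

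sls-2.2 had IDR signal values of 150.6 at position -27 (rank 318) and 116.5 at position 172. The replicates placed their summits differently at this gene. Replicate 1 had 83.3 at position -47 and 64.8 at position 173, whereas replicate 2 had a single summit at position 106 with 74.3. sls-2.3, a neighbour on chromosome II, was the first gene beyond the distance limit, 394 bp from its nearest IDR summit. That summit is the one at position 172 of sls-2.2. No summit of the pooled list lay within 200 bp of sls-2.3 either.

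The bound SL2 genes and the unbound sls-2.3 shared more than their symbol. Of the 18 SL2 genes, 4 (sls-2.4, sls-2.3, sls-2.2 and sls-2.1) held the letters TTACTCAAG that end the SL2 leader. The run of 15 bases shown above was searched for as the longest that the upstream bases of these 4 genes share. That all 4 hold it therefore follows from the search. In each of them the run started at position -65. The run was before none of the other 14 SL2 genes and none of the 46761 nuclear genes that are not classed as snRNA. The snRNA genes of the other families were not searched for it. Of these 4 genes 3 had an IDR summit, and of the other 14 SL2 genes none had one, although 4 of the 14 were in the pooled list. The IDR and pooled lists had summits at 2.31% and 19.1% of all nuclear genes. The sls-2 genes without these letters are known to include genes of variant leaders, and sls-2.6, the first unbound by position, had its nearest pooled summit 1720 bp away.

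Genes with the letters of U6 formed the family of most members, 24, of which 22 held the letters searched for U6. It had 3 genes in the IDR set (12.5%, against 2.31% of all nuclear genes) and 5 in the pooled list (20.8%, against 19.1%). The pooled share was thus near that of all nuclear genes and below the 27.8% without the piRNA genes. W05B2.8 (chrIII:10989679-10989780, plus strand) lies within dhc-4, a dynein heavy chain gene, and had the highest signal value of all snRNA genes, 259.7 at position 11 (rank 79). The same summit had 120.0 at position 13 in replicate 1 (rank 78) and 133.0 at position 11 in replicate 2 (rank 92). The replicates thus gave it nearly the same place and rank, and a further IDR summit lay downstream, at position 217, with 107.0.

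R07E5.16 (chrIII:4414185-4414286, plus strand) lies within mpc-1, a mitochondrial pyruvate carrier gene, and had 113.7 at position 67 (rank 644). Replicate 1 had 55.3 at position -19, and replicate 2 had 51.6 at position 63. C28A5.7 (chrIII:4426854-4426955, minus strand), within C28A5.6, had 101.7 at position -13 (rank 815) and 108.3 at position 193. Its replicates differed in rank, with 33.0 in replicate 1 (rank 2116) and 66.2 in replicate 2 (rank 621). R07E5.16 was identical to C28A5.7 and to W05B2.8 over all 102 bases of the gene, and their 100 upstream bases matched at 80% and 67%. A read from inside one of these genes can therefore not be told apart from the others by its sequence, whereas the flanks differ.

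The sup-6 family held U1 letters in 12 of 13 genes. It had 2 genes in the IDR set (15.4%, against 2.31% of all nuclear genes) and 5 in the pooled list (38.5%, against 19.1%). sup-6 and sup-39 are known as suppressor genes whose mutant U1 RNAs alter the choice of splice site. sup-6, within F58G1.7, had IDR signal values of 117.6 at position -17 (rank 598) and 131.4 at position 185. In replicate 1 a single summit had 54.3 at position 35, and in replicate 2 the values were 66.9 at position -25 and 79.6 at position 180. sup-39 (chrII:6968394-6968558, minus strand), within C15F1.5, had 112.6 at position 63 (rank 658), in the middle of the gene. Replicate 1 had 49.3 at position 59, and replicate 2 had 62.2 at position 119 and 32.6 at position -82. The 2 genes were identical at 161 of 165 bases (97.6%) but at only 63% of upstream bases. mir-1831 (chrII:6968530-6968551, minus strand), a gene with a microRNA name that is annotated as snRNA, lies inside sup-39 and has the same IDR region, so both genes stand for 1 region in the counts.

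F38E11.10 (chrIV:9444642-9444763, plus strand), with U5 letters as in 11 of the 12 genes of its family, had 144.0 at position -46 (rank 365). Replicate 1 had 60.9 at position -10, and replicate 2 had 81.2 at position -85 and 49.6 at position 115. In the pooled list a further, weaker summit of 66.4 lay at position 153. Of the 12 genes, 11 are on chromosome IV, and 2 had a pooled summit (16.7%, against 19.1% of all nuclear genes). The other of these 2 was F32B5.9, the gene on chromosome I, with 64.3 at position -81. It had 33.7 in replicate 1 and 30.6 in replicate 2.

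**Figure D2:**
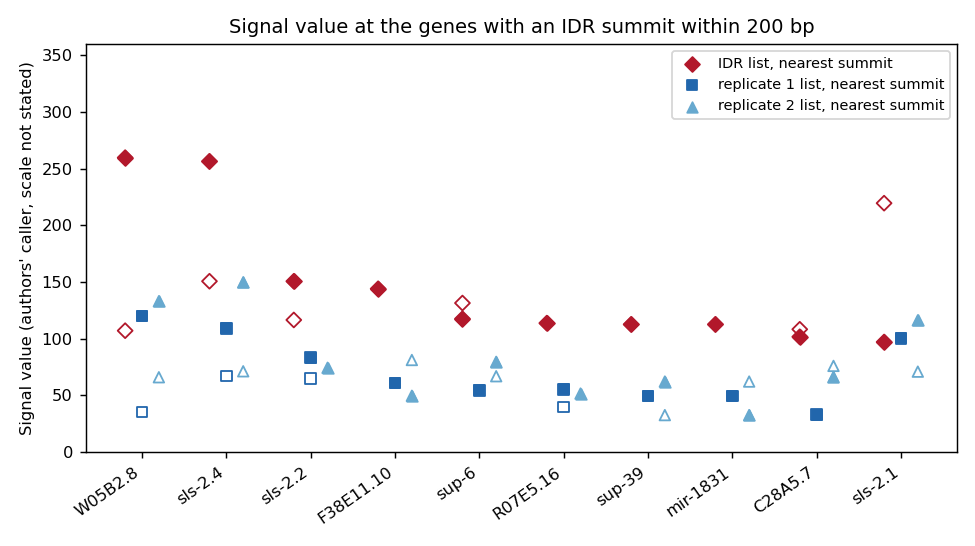
Signal value (y axis, the authors' caller, scale not stated) at the 10 genes with an IDR summit within 200 bp, for the IDR, replicate 1 and replicate 2 lists; filled markers are the nearest summit and open markers any further summit within 200 bp. W05B2.8 and sls-2.4 stand highest at 259.7 and 256.4, sls-2.1 reaches 219.5 only through its further summit, and sup-39 and mir-1831 share 1 region.

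By the distance rule every summit counted lies within 200 bp of its gene, and those of the IDR set were often paired. The nearest IDR summit had a median position of 17 bp from the 5′ end, within a range of -46 to 153. The median was 84.5 over the 30 genes bound in replicate 2 and 13 over the 21 bound in replicate 1. It was 39.5 over the 10 genes with the IDR summit of highest signal value in place of the nearest. The nearest IDR summit was upstream of 4 genes, inside 4 and past the end of 2. The IDR set had a pair of summits at 6 genes (sup-6, W05B2.8, C28A5.7, sls-2.4, sls-2.2 and sls-2.1), 199 to 206 bp apart. That spacing is near the smallest in any list: no neighbouring summits were closer than 199 bp in any of the 4 lists, and 4.66% of all 923 nuclear IDR summits had another within 250 bp before them. Whether the pairs are 2 sites or 1 region that the caller divided was not tested.

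**Figure D3:**
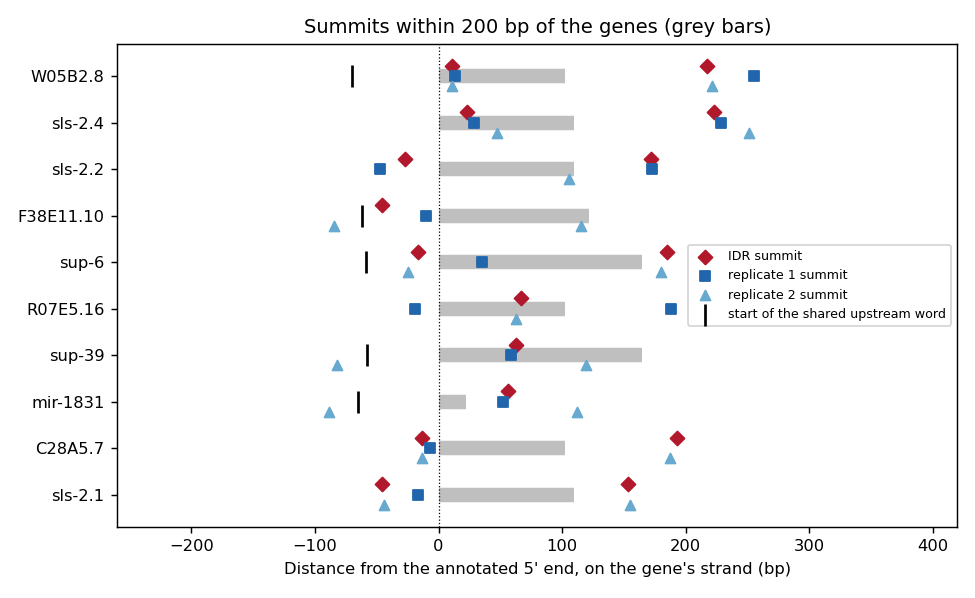
Position of each summit within 200 bp of the 10 genes (x axis, bp from the annotated 5′ end, on the gene's strand), in the IDR, replicate 1 and replicate 2 lists, with the gene as a grey bar and the start of the shared word, in its looser form, as a black tick. The pairs of IDR summits stand 199 to 206 bp apart on either side of, or inside and past, the gene.

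The replicates ranked the strongest of these genes alike. When the 941 regions of highest signal value were taken from each replicate, 9 snRNA genes had a summit in each, and 8 of them were the same. R07E5.16 was only in that part of replicate 1 and C28A5.7 only in that part of replicate 2. Across the 18 genes listed by both replicates, the nearest signal values had a Pearson r of 0.896 on the log2 scale and a Spearman rho of 0.871. These describe genes, not independent samples, and sup-39 and mir-1831 share regions. The IDR signal values at the 10 genes had a median of 115.6, against 145 at tRNA genes, 205 at snoRNA genes and 132 at miRNA genes of the same set. The −log10 q-values of the authors at the 15 regions were between 1.71 and 1.91, inside the 1.55 to 2.02 of the whole set.

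Weaker summits, in the pooled list but not in the IDR set, were found at 17 genes, with signal values between 36.1 and 84.5 and a median of 46.7. The highest was sls-2.9, an SL2 gene, with 84.5 at position -141 and with 33.5 in replicate 1 and 52.0 in replicate 2. F54D8.7, with U6 letters, had 78.0 at position 128, with 29.5 in replicate 1 and 46.8 in replicate 2. Y9C9A.111, also of that family, had 61.4 at position 30, with 26.8 and 28.6 in replicates 1 and 2. All 3 were listed by both replicates. sls-2.8 had 63.3 at position 18, with 46.3 in replicate 2 and no summit in replicate 1. ZK1251.14, of no family, had 46.8 at position -186, with 35.2 in replicate 1 and none in replicate 2. These 2 genes each rest on 1 replicate.

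The F08G2.10 family, with U2 letters in 18 of 19 genes, had no IDR summit. A summit was within 200 bp of 3 of the 19 in the pooled list (15.8%, against 19.1% of all nuclear genes), 1 in replicate 1 (5.26%, against 15.8%) and 7 in replicate 2 (36.8%, against 25.5%, or 36.9% without the piRNA genes). The strongest was F08G2.10 itself (chrII:13829305-13829491, minus strand), with 46.7 at position -26 in the pooled list and 29.5 in replicate 2. Replicate 1 had no summit within 200 bp of F08G2.10, so this gene also rests on 1 replicate. With 19 genes, and with replicate 2 the longest list, these shares are given as a description. Of the 5 genes of the C52E4.8 family, with U4 letters and all on chromosome V, 2 had pooled summits (40%, against 19.1% of all nuclear genes). C52E4.8 had 48.2 at position 181 in the pooled list. Its nearest summits in the replicates lay on different sides of the gene. They had 28.9 at position -42 in replicate 1 and 29.9 at position 160 in replicate 2. In the sup-6 family F08H9.10 had 43.6 at position 10, with 22.7 in replicate 1 and 20.8 in replicate 2. Of the 10 SmY genes only smy-1 had a summit within 200 bp, with 48.5 in the pooled list at position 261, past the gene's end, and 22.2 and 24.8 in replicates 1 and 2. The 7 genes of the B0213.21 family had no summit in any list.

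The 12 SL1 genes had no summit in any of the 4 lists, but little of their sequence is unique. They lie in 1 array on chromosome V (17118154 to 17132107, a span of 13954 bp). As a measure of how well short reads can be placed, the share of 36-base words found once in the genome was taken over each gene with 200 bp on each side. It was 0% at the median SL1 gene and 22.5% at the highest, sls-1.12, against a median of 90.65% for the SL2 genes. The absence of summits at SL1 genes and this low uniqueness go together, and the authors' handling of reads with several matches is not given in the sources used here, so the part it has was not tested. Among all 129 genes, 107 had windows over 50% unique. They held all 10 of the genes with IDR summits (64.7% to 96.2% unique) and 26 of the 27 in the pooled list. The 22 other genes held 1 pooled summit, at R05D7.6 with U2 letters. Families with few or no summits were not all of low uniqueness, since the 7 genes of the B0213.21 family had a median of 100% and the 10 SmY genes 99.9%.

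**Figure D4:**
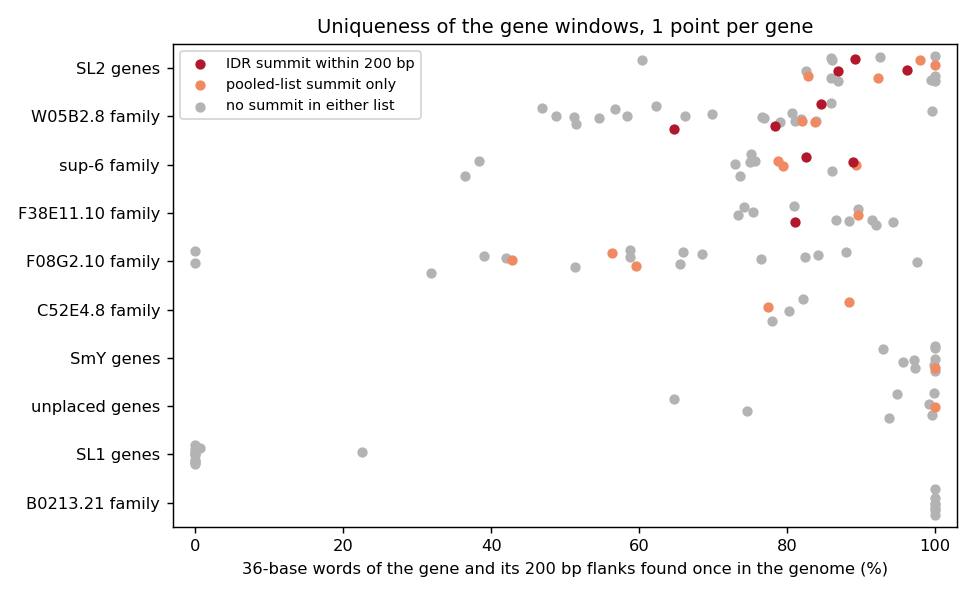
Share of 36-base words found once in the genome (x axis, %) in the window of each gene with 200 bp on each side, 1 point per gene by family, coloured by the list that holds a summit; mir-1831 is left out, and points are spread vertically for sight. The SL1 genes lie between 0% and 22.5% with no summit, while the genes with IDR summits lie at 64.7% or above.

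Genes in tight groups had fewer pooled summits than the others. There were 11 clusters of 3 or more snRNA genes with gaps of at most 5000 bp, and 1 of their 46 genes had a pooled summit (2.17%), against 26 of the 83 genes outside clusters (31.3%) and 19.1% of all nuclear genes. None of the 46 had an IDR summit, which is near the 2.31% of all nuclear genes, and all 10 genes with one were outside clusters. This separation depends on how a cluster is defined. Of the 50 genes within 2000 bp of another snRNA gene, 3 had an IDR summit (sls-2.2, sup-39 and mir-1831) and 4 a pooled one. Of the other 79 genes, 7 had an IDR summit and 23 a pooled one. The cluster of 6 genes with U6 letters on chromosome IV, K09B11.11 to K09B11.16, had no summit although all 6 held TATATAA, and its windows were 46.9% to 66.2% unique. Clusters also include unique ones, such as smy-8 to smy-9, at 100%, so uniqueness and clustering overlap only in part, and their parts were not told apart. By chromosome, IDR summits lay at 5 of 16 genes on II, 3 of 13 on III, 1 of 16 on I and 1 of 41 on IV, and at none of 40 on V or 3 on X. Shares over all genes of each chromosome were not computed, so no difference between chromosomes is read from these counts. The genes on V include the 12 SL1 genes of low uniqueness.

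Upstream of the genes, the word most often found was CGGAACCC, searched on the strand of the gene in the 100 bases before the 5′ end. The word was picked from these same genes, leaving out SmY genes, mir-1831 and genes of no family, so its high share follows in part from that choice. It was before 31 of the 129 genes (24%), at a median start of -61 and between -74 and -56, against 0.077% of the 46761 other nuclear genes. Counting either strand, 31 snRNA genes and 0.101% of the other genes held it. The looser form, with any base at position 3 (CGNAACCC, which takes in the first word), was chosen after seeing the data. It was before 46 genes (35.7%), against 0.252% of other genes. That form was before 11 of 12 genes of the F38E11.10 family, 10 of 18 SL2 genes, 9 of 13 of the sup-6 family, 8 of 10 SmY genes and 5 of 24 of the W05B2.8 family. It was not before any SL1 gene or any gene of the F08G2.10 family, of which 14 of 19 held CTCCCCAC, at a median start of -34.

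Summits were found with and without the word. Of the 10 genes with IDR summits 2 held CGGAACCC and 5 held the looser form, so the other 5 held neither, among them the SL2 genes. The 5 with the looser form include sup-39 and mir-1831, which share 1 word and 1 IDR region. Both genes are also counted in the pooled share of the looser form. In the pooled list 14 of the 46 genes with that form had a summit (30.4%), against 13 of the 83 genes without it (15.7%). For CGGAACCC itself these were 9 of 31 genes (29%), against 18 of 98 (18.4%). A TATA word, TATATAA, was before 18 snRNA genes (14%), against 2.4% of other nuclear genes. In the family with U6 letters it was before 15 of 24, starting at -31 or -30. All 5 genes of that family with a pooled summit, 3 of them in the IDR set, were among these 15. The 9 genes without it had none in the pooled list, where the share of all nuclear genes was 19.1%. Of these 9, B0205.15 had a summit in replicate 2, 155 bp away, with 17.1. With so few genes the split is a description. The 5 were not all of the 15, and K09B11.11 to K09B11.16 are 6 of the unbound ones. A word is a description of the sequence, and whether it has a part in binding was not tested.

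**Figure D5:**
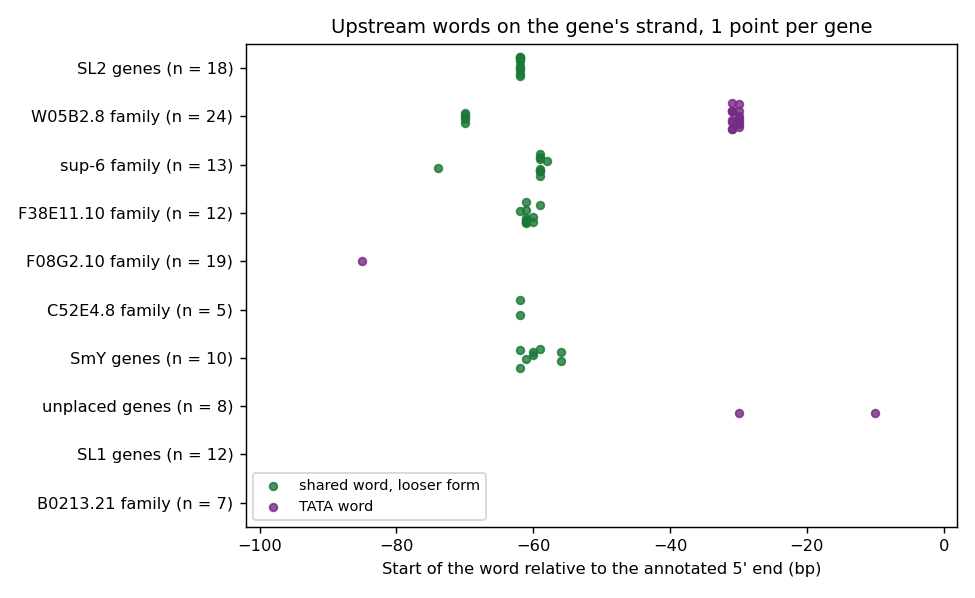
Start of the shared word, in its looser form CGNAACCC, and of TATATAA (x axis, bp from the annotated 5′ end) before the genes of each family, 1 point per gene that holds the word; mir-1831 is left out, and points are spread vertically for sight. The shared word starts between -74 and -56 in the families that hold it, and TATATAA starts at -31 or -30 in the W05B2.8 family.

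Some other genes overlapped the bound genes, while coding starts and other small RNA genes were further away. The nearest 5′ ends of protein-coding genes lay 523 to 3274 bp from the IDR summits of the 10 genes, the closest being that of ZK1248.17 near sls-2.1. No tRNA, snoRNA or miRNA gene lay within 200 bp of them. Non-coding RNAs are annotated on the other strand over sls-2.4, sls-2.2, sup-39, mir-1831, C28A5.7 and F38E11.10, and the lists do not tell which strand a summit serves. Of the 129 genes, 63 lie within the span of a protein-coding gene, with 6 IDR and 13 pooled summits, against 66 that do not, with 4 IDR and 14 pooled summits. The IDR and pooled shares over all nuclear genes were 2.31% and 19.1%. Of the 10 genes within the 200 bp limit, those furthest from their nearest IDR summit were mir-1831, sls-2.1 and F38E11.10, at 35, 44 and 46 bp. The first beyond the limit were sls-2.3, sls-2.15 and F08G2.9, at 394, 774 and 1362 bp.

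Some genes for the proteins that act on these RNAs also had an IDR summit. Of 51 listed genes of snRNPs and of snRNA transcription 50 were matched, and 3 (6%) had an IDR summit within 500 bp of a 5′ end, against 2.44% of 19973 nuclear protein-coding genes. They were snr-1, an Sm core protein gene (152.2, at 415 bp), prp-8, for the U5 protein at the core of the spliceosome (103.5, at 307 bp), and ints-4, an Integrator subunit gene (99.7, at 20 bp). In the pooled list 22 (44%) had a summit, against 20.4% of protein-coding genes. These were 5 of 7 Sm genes, 4 of 7 Lsm genes, 4 of 7 genes of U5 and U4/U6 proteins, 5 of 10 Integrator genes, 2 of 4 genes of the spliced leader particle (sna-2 and sut-1) and 1 of 3 assembly genes (smi-1). Of the genes of SNAPc, the complex that reads snRNA promoters, 1 of 7 had a pooled summit, snpc-3.4 with 81.8, and none had an IDR summit. None of the 3 genes of U1 and U2 snRNP proteins, and neither of the genes for TBP and a TFIIIB subunit, had a summit in either list.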

How the data were processed

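The authors deposited region lists in narrowPeak layout for each replicate, the pooled reads and the IDR set, of which the ce11 versions were used. The caller, its version, the IDR threshold and the read mapping are not given in the sources used here. A region's deposited signal score is the authors' caller value, a further deposited column is −log10 of a q-value, and the deposited summit offset, another kind of value, gives the summit within a region. Summits, written 1-based, were compared with genes of Ensembl release 115, named through RefSeq symbols. Families were built from global alignments (Biopython 1.88) of whole genes at 70% identity of the longer gene, with at least 3 genes. The uniqueness measure counted 36-base words on both strands. Tables were made with Python 3.11.15, numpy 2.4.6 and pandas 2.3.3, and figures with matplotlib 3.10.9. The summit search was checked on simulated data. Depth is unknown, and no test was run.

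The members and lists were chosen with earlier results of these data known. Named genes are all with an IDR summit, the 10 highest of the pooled list alone, the first unbound of each family, IDR-bound pathway genes and 3 genes on each side of the distance limit. Others (R05D7.6, snpc-3.4, sna-2, sut-1, smi-1, K09B11.11 to K09B11.16, smy-8 and smy-9) were chosen after their values were seen. Alternatives changed the list, the replicate, the distance, its reference point, the biotype source, uniqueness and the summit taken. The 1 listed gene without a match was snpc-3.3.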

Additional observations from a re-analysis of the deposited data

How the results depend on the processing

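The count of 10 snRNA genes stayed at 10 with a distance of 100 bp, with distance taken from the 5′ end, with overlap of region and gene, with the RefSeq biotype and with windows over 50% unique. It was 11 at 500 bp and 9 with sup-39 and mir-1831 counted once, an alternative chosen after seeing the data. It was 27 in the pooled list, 21 in the replicate 1 list, 30 in the replicate 2 list and 6 among the IDR regions of higher signal value. Leaving out each replicate in turn, with the 941 highest regions of the remaining one, gave a range of 9 to 9 genes. The share of genes in both replicates was 6.2% among those regions, against 14% in whole lists. The median position, over the genes bound in each list, was 84.5 in replicate 2, 13 in replicate 1, 23 in the pooled list and, in the IDR set, 39.5 with the highest signal value in place of the nearest summit. Taking the highest signal value gave a median signal value of 138, against 115.6, and moved sls-2.1 to 219.5, against 97.1. The count of protein genes was 22 in the pooled list, against 3 in the IDR set. At 80% identity 5 families of 3 or more genes formed, against 6 at 70%. The causes of these changes were not tested. The pooled, replicate 1 and replicate 2 lists also differ in length from the IDR set, with 13472, 10468 and 20425 regions against 941.

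No paired analysis was possible because there is 1 group. The lists carry no read counts, so how far depth limits the weaker summits is unknown.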

Other observations

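The first genes without a summit in the pooled list, by position within their family, were not near misses in that list. Replicate 2 did list a summit 155 bp from B0205.15, with 17.1, and 179 bp from K03B8.10, with 22.9. The nearest pooled summit lay 1144 bp from B0205.15 (U6 letters), 2223 bp from Y69A2AR.36 (U5 letters), 3765 bp from C27H5.11 (the sup-6 family) and 18919 bp from Y47H9A.2 (U2 letters). It lay 14263 bp from smy-7, 15194 bp from B0213.21, 15759 bp from K03B8.10 (U4 letters), 19965 bp from sls-1.12 and 3931 bp from W07G1.24, which is in no family.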
